A study of Homo sapiens with 10 samples.

Results

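Serpins are a large family of proteins, most of which inhibit serine proteases. The 10 serpin genes described here were chosen by name from the 50868 genes of the deposited count table: SERPINA1, SERPINB1, SERPINB2, SERPINB6, SERPINB8, SERPINB9, SERPINB10, SERPINE2, SERPINF1 and SERPING1. They were measured in Kasumi-1, a human myeloblast leukemia line that carries the 8;21 chromosome translocation. The cells had been infected with a retrovirus for E2-2, E2A or HEB, the 3 E proteins, or with the MIGR1 retrovirus alone (called vector here). E proteins are basic helix-loop-helix transcription factors, coded by TCF4 (E2-2), TCF3 (E2A) and TCF12 (HEB). GFP-positive cells were sorted 4 days after infection, so each group is a sorted pool of 1 cell line that overexpressed the factor or carried MIGR1 alone, and all groups carry the translocation and its AML1-ETO fusion protein. Each group had 1 RNA library, named after its factor here, with no replicate.

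An inhibitory serpin exposes a loop that a protease takes for a substrate. The protease cuts the loop and becomes trapped in a covalent complex with the serpin. Myeloid precursors make granule proteases such as neutrophil elastase together with serpins of the cytosol that restrain these enzymes when they leak from granules. A few family members have lost the inhibitory function and act as hormone carriers, chaperones or growth factors.

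Levels are given in CPM, reads per 1000000 after TMM scaling of the library sizes, and CPM values are compared between libraries and not between genes. Parentheses after a fold hold a 95% exact interval, which covers counting error only, and differences between cultures are not in it. A call, higher or lower, needed a 2-fold difference or more, an interval without 1, and 30 or more reads of the gene in the pair of libraries. The libraries held 14816708 (E2-2), 17673090 (E2A), 16791922 (HEB) and 15728974 (vector) counted reads, so 3 reads, the limit that a count of 0 allows, stood for 0.170 to 0.198 CPM. Each transduced gene was highest in its own library. TCF4 had 823 CPM in E2-2 and 0.256 CPM in vector, TCF3 1312 CPM in E2A and 252 CPM in vector, and TCF12 836 CPM in HEB and 165 CPM in vector. All 8 listed markers of the line, RUNX1, RUNX1T1, CD34, KIT, CD33, MPO, ANPEP and POU4F1, had at least 30 reads over the 4 libraries. In E2-2 against vector 7 of these 8 had a fold below 1, with a median log2 fold of -0.40, and their summed level was 13007 CPM in E2-2, 15176 CPM in E2A, 20027 CPM in HEB and 16938 CPM in vector. CD33 was called higher in each comparison with vector and the other markers of the line were not called.

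A set of 4 serpin genes that were well expressed in vector cells, SERPINA1, SERPINB1, SERPINB6 and SERPINB9, had their lowest level in the E2-2 library. SERPINF1 went the other way and was highest there. Of the 10 genes, 7 had at least 30 reads over the 4 libraries, 1 had a single read and 2 had none. In the comparison of E2-2 with vector, 5 members had enough reads, of which 3 were called lower (SERPINA1, SERPINB9 and SERPINB1) and 1 higher (SERPINF1). Over all 13884 genes with enough reads, 3.55% were called lower and 8.45% higher in that comparison. With E2A, 2 of 6 measured members were called lower (SERPINA1 and SERPINB9) and 0 higher, beside 1.58% and 4.89% of 13901 genes. With HEB, 0 of 6 measured members were called in either direction, beside 1.23% of 13695 genes called lower and 2.55% called higher. The median log2 fold of measured members was -1.34 with E2-2, -0.53 with E2A and -0.23 with HEB, beside -0.03, -0.01 and 0.01 over all genes in the same order of factors. These medians are not over the same genes, since SERPINB8 had enough reads with E2A and HEB but not with E2-2. The 3 comparisons share the vector library. These members were listed with earlier results of the same libraries known, so the counts describe them and are not independent evidence of a direction.

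**Figure D1:**
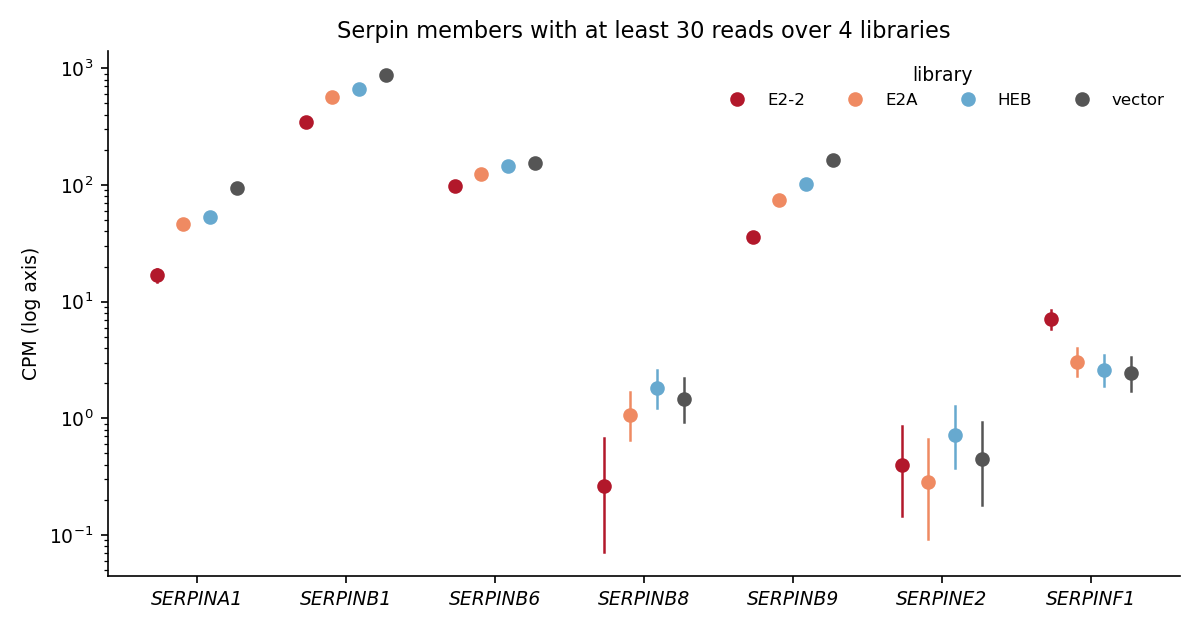
Levels in CPM (log axis) of the 7 serpin genes with at least 30 reads over the 4 libraries, 1 point per library, in the order E2-2, E2A, HEB and vector, with lines for 95% counting intervals of each level. SERPINA1 stands at 16.9 CPM in E2-2 and 94.9 CPM in vector, and SERPINF1 at 7.06 CPM in E2-2 and 2.44 CPM in vector.

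SERPINA1 (ENSG00000197249, chromosome 14, 94376747 to 94390693, GRCh38) codes for alpha-1 antitrypsin, the secreted inhibitor of neutrophil elastase that liver cells make for the blood plasma and that monocytes and neutrophils also make. It had 16.9 CPM in the E2-2 library, 45.9 CPM in E2A, 53.1 CPM in HEB and 94.9 CPM in vector. The E2-2 level was the lowest, the E2A and HEB levels lay close together and the vector level was the highest. SERPINA1 was 5.62-fold (4.92–6.44) lower in E2-2 than in vector. In E2A it was 2.07-fold (1.90–2.25) below vector, and this was called too. In HEB it was 1.79-fold (1.64–1.94) lower, under the 2-fold rule. Relative to vector, 21 of the 13884 genes tested had a lower fold than SERPINA1 with E2-2, 184 of 13901 with E2A and 300 of 13695 with HEB. In bulk RNA, fewer cells that express a gene and less RNA per cell cannot be told apart.

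The gene has an upstream start, known from monocytes, and a downstream start, known from liver. The count table sums reads over the whole gene, so the use of the starts was not measured. The RefSeq windows of both starts (GRCh38.p14, minus strand, 250 bases before to 50 after the start) are shown because E proteins bind E boxes, spelled CANNTG, and RUNX1, which gives AML1-ETO its DNA-binding domain, binds TGTGGT. Capitals mark each match on either strand.
SERPINA1 upstream start, chr14:94390586-94390885: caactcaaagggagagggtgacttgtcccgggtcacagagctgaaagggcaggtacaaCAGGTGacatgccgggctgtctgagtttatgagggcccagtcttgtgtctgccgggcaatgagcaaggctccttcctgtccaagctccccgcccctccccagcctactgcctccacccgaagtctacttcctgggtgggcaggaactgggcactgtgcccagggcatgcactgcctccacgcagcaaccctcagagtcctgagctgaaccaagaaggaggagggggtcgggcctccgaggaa
SERPINA1 downstream start, chr14:94388553-94388852: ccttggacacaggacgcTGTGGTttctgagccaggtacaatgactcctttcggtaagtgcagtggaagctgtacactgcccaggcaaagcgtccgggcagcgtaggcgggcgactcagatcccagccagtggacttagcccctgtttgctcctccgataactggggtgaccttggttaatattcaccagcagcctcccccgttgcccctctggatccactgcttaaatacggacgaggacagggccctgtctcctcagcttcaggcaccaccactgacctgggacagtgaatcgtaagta
The upstream window held 1 E box, CAGGTG, which begins 192 bases before the start, and the downstream window held 1 TGTGGT, which begins 233 bases before the start, and no E box. Of all 35116 RefSeq windows of this length, 68.7% held CANNTG, 20.6% held its form CAGGTG or CACCTG, 17.9% held its form CAGCTG and 13.1% held TGTGGT or ACCACA. A match is a description of the letters only, since the HA ChIP-seq libraries of the study were not analysed here.

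A set of 3 members of clade B, the serpins that lack a signal peptide and mostly stay inside the cell, lie side by side on chromosome 6. SERPINB9 (ENSG00000170542, 2887266 to 2903280) codes for the inhibitor of granzyme B that protects cytotoxic lymphocytes and their targets. It had 35.9 CPM in E2-2, 74.1 CPM in E2A, 102 CPM in HEB and 163 CPM in vector, a descending series from vector to E2-2 with clear steps. SERPINB9 was 4.56-fold (4.15–5.01) lower in E2-2 than in vector, 2.21-fold (2.06–2.36) lower in E2A and 1.61-fold (1.51–1.71) lower in HEB, the last not called. Granzyme B itself was all but absent, with 1 GZMB read in E2-2, 2 in E2A and 0 in HEB and vector.

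SERPINB1 (ENSG00000021355, 2832332 to 2842006) codes for the leukocyte elastase inhibitor, a cytosolic guard of neutrophils against elastase, proteinase 3 and cathepsin G. It was the member with the most reads, 5206 in E2-2, 10068 in E2A, 10942 in HEB and 13521 in vector. The levels were 343 CPM in E2-2, 570 CPM in E2A, 661 CPM in HEB and 867 CPM in vector, in the same order as those of SERPINB9 but with smaller folds between libraries. SERPINB1 was 2.53-fold (2.45–2.61) lower in E2-2 than in vector, 1.52-fold (1.48–1.56) lower in E2A and 1.31-fold (1.28–1.34) lower in HEB, of which the first was called.

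SERPINB6 (ENSG00000124570, 2948159 to 2972165) codes for an intracellular inhibitor of cathepsin G. It had 98.8 CPM in E2-2, 125 CPM in E2A, 147 CPM in HEB and 155 CPM in vector and was called in no comparison. It was 1.56-fold (1.47–1.67) lower in E2-2 than in vector, and the interval for HEB against vector (0.996–1.12, as a fold lower) included 1. Among these neighbours the size of the difference thus ran from SERPINB9 over SERPINB1 to SERPINB6 in each comparison with vector.

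The start windows of SERPINB1 and SERPINB9 (GRCh38.p14, both on the minus strand) are shown beside those of SERPINA1 because these genes were called lower together in E2-2. They hold neither CANNTG nor TGTGGT or ACCACA, so no base is in capitals.
SERPINB1, chr6:2841814-2842113: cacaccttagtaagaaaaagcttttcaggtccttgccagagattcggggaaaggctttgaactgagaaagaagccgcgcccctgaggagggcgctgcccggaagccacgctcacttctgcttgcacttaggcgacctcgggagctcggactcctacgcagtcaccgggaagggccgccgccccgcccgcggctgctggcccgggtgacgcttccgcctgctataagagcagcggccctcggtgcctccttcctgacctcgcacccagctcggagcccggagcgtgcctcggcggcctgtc
SERPINB9, chr6:2903260-2903559: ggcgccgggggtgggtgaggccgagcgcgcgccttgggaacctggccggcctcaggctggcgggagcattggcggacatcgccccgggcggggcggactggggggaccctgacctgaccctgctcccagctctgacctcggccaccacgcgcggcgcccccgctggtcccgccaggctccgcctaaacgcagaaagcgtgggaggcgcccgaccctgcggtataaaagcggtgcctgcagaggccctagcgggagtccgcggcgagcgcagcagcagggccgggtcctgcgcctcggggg
Of the members, 7 had RefSeq windows, 12 in all, and 6 of those windows held CANNTG, in 5 genes. Windows with an E box belonged to SERPINA1, to SERPINB6, whose 3 E boxes lay in one window and whose TGTGGT lay in another, and to SERPINB2, SERPINB8 and SERPINE2, which had few or no reads. Its absence from the windows of SERPINB1 and SERPINB9 says nothing about binding.

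**Figure D2:**
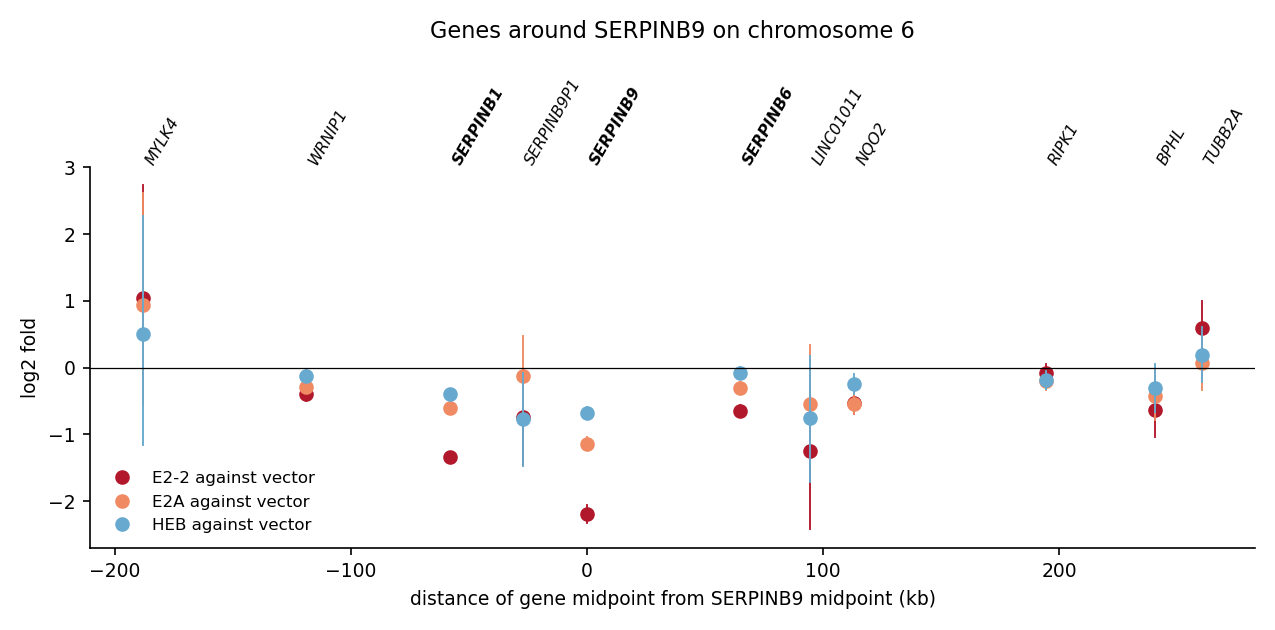
Log2 fold against vector of every gene with at least 30 reads over the 4 libraries within 300 kb of SERPINB9, placed by the distance of gene midpoints in kb, with lines for 95% counting intervals. SERPINB9 has the lowest points for E2-2 and E2A, at -2.19 and -1.14, and lies at -0.68 for HEB, while RIPK1 lies at -0.08 for E2-2.

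Genes on both sides of this group were compared to place the difference. WRNIP1, to the left of SERPINB1, had 1361 reads in E2-2 and 1850 in vector and was 1.32-fold (1.23–1.42) lower in E2-2. Farther to the left, MYLK4 had 12 reads in E2-2 and 6 in vector, too few for a call. RIPK1, a cell death kinase gene to the right of SERPINB6, was 1.05-fold (0.961–1.16) lower in E2-2. Farther to the right, BPHL was 1.55-fold (1.18–2.05) lower, a fold close to that of SERPINB6, and TUBB2A was 1.52-fold (1.16–1.99) higher, neither called. NQO2, a quinone reductase gene between SERPINB6 and RIPK1, was 1.45-fold (1.30–1.62) lower in E2-2 than in vector. The non-coding gene LINC01011, which overlaps NQO2, had 11 reads in E2-2 and 27 in vector and was called lower at 2.39-fold (1.15–5.33). The strand setting of the counting is not known, so reads of these overlapping genes may be mixed. The pseudogene SERPINB9P1, between SERPINB1 and SERPINB9, had 28 reads in E2-2, 50 in E2A, 30 in HEB and 48 in vector and was not called. It was 1.67-fold (1.02–2.76) lower in E2-2, 1.09-fold (0.716–1.65) in E2A and 1.70-fold (1.05–2.77) in HEB, the last beside 1.61-fold for SERPINB9. The counts of this pseudogene were small beside the 544 to 2550 reads of SERPINB9, with which it may share reads. For SERPINA1, the nearest genes with at least 30 reads, IFI27L2 and DICER1, lay far off, at 246494 and 695535 bases. They were 1.08-fold (0.810–1.45) higher and 1.07-fold (1.02–1.12) lower in E2-2 than in vector.

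Another group of clade B genes on chromosome 18 was nearly silent. SERPINB2 (ENSG00000197632, 63871692 to 63903890) codes for plasminogen activator inhibitor 2, which monocytes make on stimulation, and had 0 reads in all 4 libraries. SERPINB10 (ENSG00000242550, 63897174 to 63936111), known as bomapin and described in bone marrow cells, had 1 read in HEB and 0 in E2-2, E2A and vector. A count of 0 allows up to 3 reads, so a level under 0.170 to 0.198 CPM was not detectable at this depth. SERPINB8 (ENSG00000166401, 63969925 to 64005667) codes for an inhibitor of the proprotein convertase furin and had 4 reads in E2-2, 19 in E2A, 30 in HEB and 23 in vector. The E2-2 library thus held the fewest. SERPINB8 was 6.87-fold (2.42–26.9) lower in E2-2 than in HEB, a call that rests on 4 reads in E2-2 and 30 in HEB and was lost with a minimum of 100 reads. Against vector it was 5.59-fold (1.91–22.2) lower, but the 27 reads of that pair did not reach the minimum.

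Of the members of the other clades, SERPINF1, SERPINE2 and SERPING1, only SERPINF1 had enough reads to be compared. SERPINF1 (ENSG00000132386, chromosome 17, 1761959 to 1777574) codes for pigment epithelium-derived factor, a secreted serpin that blocks vessel growth and inhibits no protease. It had 107 reads in E2-2, 54 in E2A, 43 in HEB and 38 in vector, or 7.06, 3.06, 2.60 and 2.44 CPM. The E2-2 library stood above the other 3. SERPINF1 was 2.90-fold (1.98–4.31) higher in E2-2 than in vector, 1.25-fold (0.813–1.95) higher in E2A and 1.07-fold (0.673–1.70) higher in HEB, where both of the last intervals included 1. Its neighbours WDR81 and SMYD4 were 1.08-fold (0.911–1.29) higher and 1.28-fold (1.04–1.57) lower in E2-2 than in vector.

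SERPINE2 (ENSG00000135919, chromosome 2, 223975112 to 224039319) codes for protease nexin 1, an inhibitor of thrombin and urokinase at the cell surface. It had 6 reads in E2-2, 5 in E2A, 12 in HEB and 7 in vector, too few for a call. SERPING1 (ENSG00000149131, chromosome 11, 57597387 to 57614853) codes for the C1 inhibitor of complement, which interferon induces in many cells, and had 0 reads in every library.

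**Figure D3:**
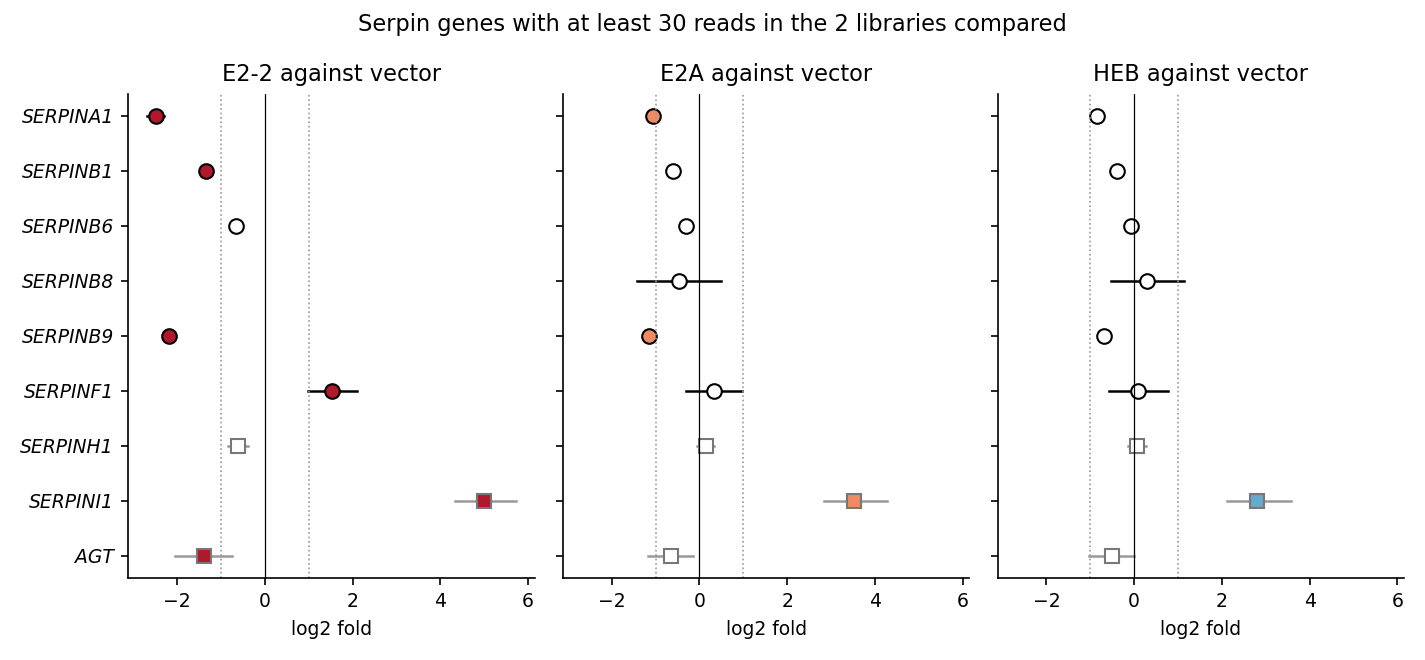
Log2 fold against vector, with 95% counting intervals, for members (circles) and other serpin genes (squares) with at least 30 reads in the 2 libraries compared; filled symbols were called and dotted lines mark a 2-fold difference. SERPINA1, SERPINB1, SERPINB9 and AGT are filled on the lower side for E2-2, and SERPINI1 is filled on the higher side in all 3 comparisons.

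Direct comparisons between the E proteins separated E2-2 from the other factors. SERPINA1 was 2.72-fold (2.36–3.14) lower in E2-2 than in E2A and 3.15-fold (2.73–3.63) lower than in HEB. SERPINB9 was 2.07-fold (1.87–2.29) lower in E2-2 than in E2A and 2.84-fold (2.57–3.13) lower than in HEB. SERPINF1 was 2.31-fold (1.65–3.26) higher in E2-2 than in E2A and 2.72-fold (1.89–3.96) higher than in HEB. SERPINB1 was 1.66-fold (1.61–1.72) lower in E2-2 than in E2A and 1.93-fold (1.86–1.99) lower than in HEB, neither called. Thus 2 of 5 measured members were called lower and 1 higher in E2-2 against E2A, beside 1.61% and 3.63% of 14066 genes. Against HEB, 3 of 6 were called lower, SERPINB8 among them, and 1 higher, beside 1.57% and 6.09% of 13891 genes.

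E2A and HEB differed less. None of 6 measured members was called between them, beside 0.696% of 13944 genes called lower and 2.38% called higher in E2A. SERPINB9 was 1.37-fold (1.28–1.48) lower in E2A than in HEB, SERPINB6 1.17-fold (1.11–1.24), SERPINB1 1.16-fold (1.13–1.19) and SERPINA1 1.16-fold (1.05–1.27). The CPM of 4 of the 7 members with at least 30 reads, namely these same genes, followed the order E2-2 below E2A below HEB below vector. That order held for 10.9% of 15684 genes. For SERPINA1, SERPINB1 and SERPINB9 the interval of every step between neighbours in that order also excluded 1, as it did for 1.54% of genes. This order was noticed after the values were seen.

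**Figure D4:**
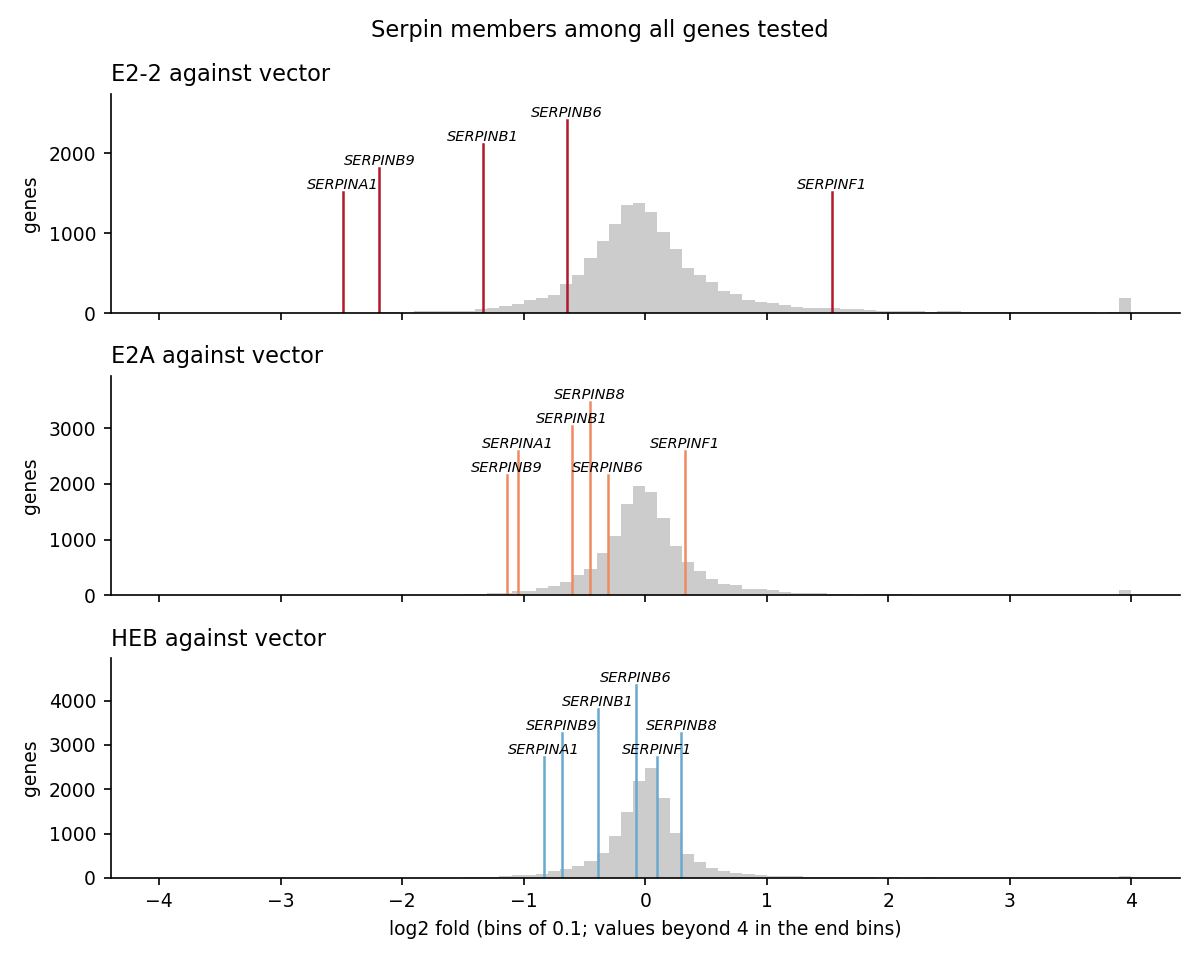
Number of genes by log2 fold against vector (bins of 0.1) for all genes with at least 30 reads in the 2 libraries, with vertical lines at the serpin members. SERPINA1 and SERPINB9 stand in the lower tail in the E2-2 panel, at -2.49 and -2.19, and move toward the centre in the E2A and HEB panels.

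The other serpin genes were examined for the same pattern. All 25 listed symbols were in the table, in 26 rows, of which 11 had no read. SERPINI1 (ENSG00000163536, chromosome 3, 167735243 to 167825568) codes for neuroserpin, an inhibitor of tissue plasminogen activator in neurons. It had 38.6 CPM in E2-2, 14.0 CPM in E2A, 8.52 CPM in HEB and 1.22 CPM in vector, so its levels ran in the reverse order to those of SERPINA1. SERPINI1 was 31.7-fold (20.1–53.0) higher in E2-2 than in vector, 11.5-fold (7.19–19.4) in E2A and 7.0-fold (4.32–12) in HEB. It was the only gene of this list called in E2A or HEB, where 3 were measured and 4.89% (E2A) and 2.55% (HEB) of all genes were called higher.

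In E2-2, 1 of 3 measured genes of the list was called higher, SERPINI1, and 1 lower, beside 8.45% and 3.55% of all genes. AGT, the gene of angiotensinogen, a serpin that yields the angiotensin hormones, had 29 reads in E2-2, 56 in E2A, 58 in HEB and 78 in vector. It was 2.62-fold (1.69–4.16) lower in E2-2 than in vector. SERPINH1, the collagen chaperone gene, had 16.4 CPM in E2-2, 27.7 CPM in E2A, 26.3 CPM in HEB and 25.1 CPM in vector and was not called.

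The serpins were set beside granule and cytotoxic proteases, of which only some are their known targets. Of 15 granule and cytotoxic protease genes and partners, 7 were measured in E2-2 against vector and none was called, with a median log2 fold of -0.79 beside -0.03 over all genes. ELANE, the gene of neutrophil elastase, had 272 CPM in E2-2, 357 CPM in E2A, 380 CPM in HEB and 415 CPM in vector. It was 1.53-fold (1.47–1.59) lower in E2-2 than in vector. PRTN3, the gene of proteinase 3, was 1.89-fold (1.85–1.93) lower in E2-2 and 1.33-fold (1.31–1.35) higher in HEB. CTSG, the gene of cathepsin G, had 62 reads in E2-2, 161 in E2A, 112 in HEB and 110 in vector, the fewest again in E2-2. AZU1, PRSS57 and CTSC were 1.93-fold, 1.94-fold and 1.51-fold lower in E2-2 than in vector, all under the 2-fold rule. With E2A 8 genes of the list were measured (median log2 fold -0.39) and with HEB 7 (median -0.06), and none was called.

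The number of inhibitor reads per protease read was compared between libraries, a ratio that library scaling cannot change. There were 0.0621 SERPINA1 reads per ELANE read in E2-2, 0.129 in E2A, 0.140 in HEB and 0.228 in vector. The ratio was thus 3.68-fold (3.21–4.23) lower in E2-2 than in vector, 1.78-fold (1.62–1.95) lower in E2A and 1.63-fold (1.49–1.79) lower in HEB, where intervals are normal approximations on the log scale. SERPINB1 reads per ELANE read were 1.26 in E2-2, 1.60 in E2A, 1.74 in HEB and 2.09 in vector, and the ratio was 1.65-fold (1.57–1.74) lower in E2-2 than in vector. Relative to PRTN3, SERPINB1 gave another order, with 0.357 reads in E2-2, 0.506 in E2A, 0.273 in HEB and 0.476 in vector. SERPINB6 reads per CTSG read were 24.2 in E2-2 and 21.9 in vector, and the interval of that change included 1, while E2A had 13.7, which was 1.60-fold (1.25–2.05) below vector.

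**Figure D5:**
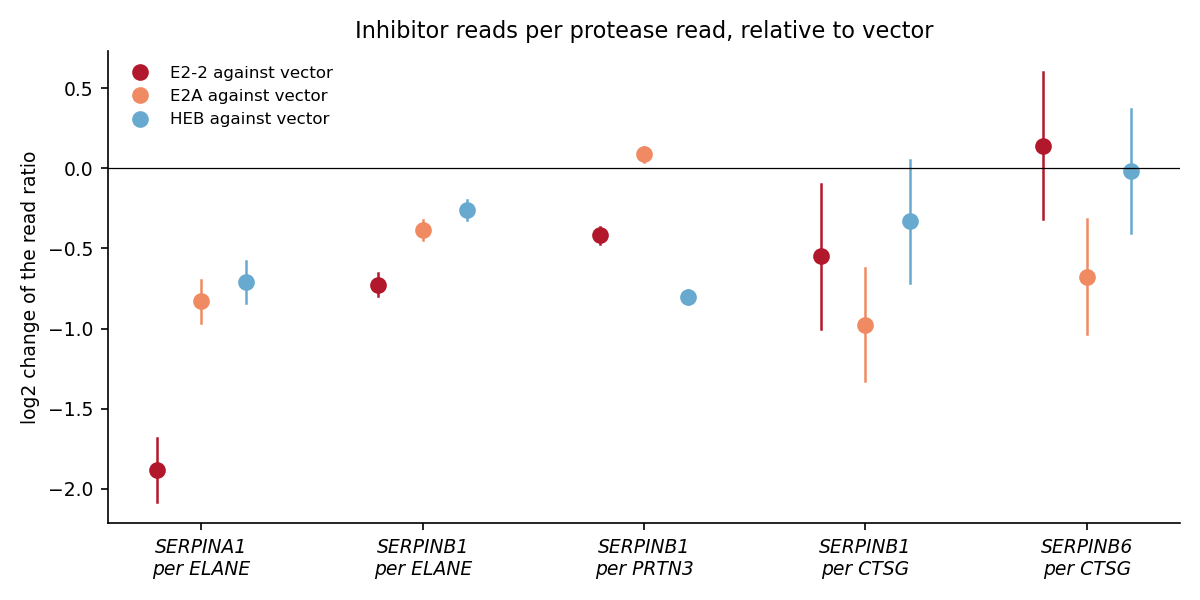
Change relative to vector, on a log2 scale, of the number of inhibitor reads per protease read in the E2-2, E2A and HEB libraries, with lines for 95% intervals from the counts. SERPINA1 per ELANE is the lowest pair in E2-2, at 0.0621 reads against 0.228 in vector.

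Among 16 genes of plasminogen activation and cell-surface proteolysis, 10 were measured in E2-2 against vector, of which 2 were called higher and 1 lower, beside 8.45% and 3.55% of all genes. The median log2 fold of the list was 0.25. VLDLR, an endocytic receptor that clears serpin and protease complexes, was 6.53-fold (4.85–8.96) higher, and ST14, the gene of the membrane protease matriptase, was 2.52-fold (1.73–3.74) higher. PLAU, the urokinase gene and target of SERPINB2 and SERPINE2, had 17.8 CPM in E2-2, 20.1 CPM in E2A, 23.4 CPM in HEB and 36.5 CPM in vector. It was 2.05-fold (1.77–2.38) lower in E2-2 than in vector, a call that was lost when total counts scaled the libraries. FURIN, the target of SERPINB8, was 1.62-fold (1.53–1.71) lower in E2-2 and was not called. PLAT, the gene of tissue plasminogen activator, had 17 reads in E2-2, 16 in E2A, 11 in HEB and 15 in vector. No gene of this list was called in E2A (10 measured, median log2 fold 0.22) or HEB (9 measured, median 0.17).

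Of the complement and coagulation genes, 2 of 10 measured were called higher and 1 lower in E2-2, 1 higher and 1 lower of 10 in E2A, and 1 higher and 2 lower of 9 in HEB. Over all genes 8.45% were called higher and 3.55% lower in E2-2, 4.89% and 1.58% in E2A, and 2.55% and 1.23% in HEB. The median log2 fold of the list was -0.06 in E2-2, -0.06 in E2A and -0.22 in HEB. THBD, the gene of the thrombin receptor thrombomodulin, was 5.76-fold (4.54–7.37) higher in E2-2 and 2.53-fold (1.95–3.30) higher in HEB. F2RL3, which codes for a thrombin receptor of platelets, was 18.2-fold (5.89–90.9) higher in E2-2 and 15.3-fold (4.95–76.6) higher in E2A. C1S, a complement protease gene whose product is blocked by the SERPING1 product, was 2.11-fold (1.27–3.63) lower in E2-2 and 2.21-fold (1.33–3.76) lower in HEB. Its partner C1R was called in none of the comparisons with vector. C3 was 2.53-fold (1.27–5.30) lower in E2A and 2.20-fold (1.12–4.50) lower in HEB. Of 9 measured cathepsin and caspase genes, CTSS was called higher in E2-2 (3.43-fold, 2.76–4.30) and CTSK in E2A (2.46-fold, 1.31–4.90).

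Of the protease inhibitors outside the serpin family, 3 of 13 measured were called higher in E2-2, 2 of 14 in E2A and 2 of 14 in HEB, beside 8.45%, 4.89% and 2.55% of all genes. None was called lower, beside 3.55%, 1.58% and 1.23% of all genes, and the median log2 fold was -0.07 in E2-2, 0.14 in E2A and -0.05 in HEB. TIMP3, an inhibitor of matrix metalloproteases, had 297 reads in E2-2, 82 in E2A, 46 in HEB and 3 in vector. With so few vector reads the folds have wide intervals, 102-fold (34.5–497) in E2-2, 24.1-fold (7.97–119) in E2A and 14.5-fold (4.65–72.6) in HEB. CD109, a surface protein of the alpha-2 macroglobulin family, was 2.97-fold (2.74–3.21) higher in E2-2, and TFPI, the tissue factor pathway inhibitor gene, 2.36-fold (1.72–3.29). A2M was 25.6-fold (4.24–1046) higher in E2A, from 29 reads against 1 in vector, and the cystatin gene CST7 was 8.29-fold (3.30–26.8) higher in HEB.

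Markers of other cell types were measured because SERPINA1 is abundant in hepatocytes and monocytes and SERPINB9 in cytotoxic lymphocytes. Of 11 hepatocyte genes, none had 30 reads over the 4 libraries, FGG had no read, and their summed level was 1.71 CPM in E2-2, 1.02 CPM in E2A, 0.725 CPM in HEB and 0.641 CPM in vector. Of 12 monocyte and macrophage genes, 4 had at least 30 reads, CD68 had none and CD14 had 1 to 3 reads per library. The summed level of that list was 72.6 CPM in E2-2, 30.7 CPM in E2A, 34.1 CPM in HEB and 34.1 CPM in vector, and CSF1R alone made up 42.6 CPM in E2-2, where it was 28.9-fold (19.1–45.9) higher than in vector. The measured genes of that list were split against vector: 2 of the 4 lay above 1 in E2-2 and 2 below (median log2 fold -0.25). In E2A, 3 of 4 lay below 1 (median -0.72). There 1 gene was called higher and 1, MS4A7, lower, beside 4.89% and 1.58% of all genes. In HEB, 3 of 4 lay below 1 too (median -0.30), with 1 called higher and 0 lower, beside 2.55% and 1.23% of all genes. All 4 lay above 1 in E2-2 against E2A (median 0.56) and in E2-2 against HEB (median 0.08). Of 10 T and NK genes, 3 had at least 30 reads, GNLY had none, and the sum was 4.55 CPM in E2-2, 3.96 CPM in E2A, 3.81 CPM in HEB and 6.09 CPM in vector. CD3D, with 2 reads in E2-2, 10 in E2A, 15 in HEB and 34 in vector, was called lower in all comparisons with vector and followed the order of SERPINB9. CD8A, with 16 reads in E2-2, 27 in E2A, 16 in HEB and 37 in vector, was called lower in E2-2 and HEB. Over all genes 3.55% were called lower in E2-2, 1.58% in E2A and 1.23% in HEB, and 10.9% followed the order of SERPINB9. In E2-2 against HEB, 2 genes of the T and NK list were measured and both lay above 1. Of these, 1 was called higher, beside 6.09% of all genes. The part of the T and NK genes, or of cells that express them, in the SERPINB9 difference was not tested. The mature neutrophil list, with 4 of 12 genes at 30 reads or more and S100A12 at 0, summed to 1389 CPM in E2-2, 1414 CPM in E2A, 1247 CPM in HEB and 994 CPM in vector. All 4 measured genes of that list lay above 1 in E2-2, with a median log2 fold of 0.75. S100A8, with 145 reads in E2-2, 39 in E2A, 38 in HEB and 0 in vector, was called higher in every comparison with vector. The megakaryocyte list, with PPBP and GP1BB at 0, summed to 6.22 to 9.79 CPM per library. In E2-2 against vector, 2 of its genes were measured, 1 above 1 and 1 below. GP9 was called higher there (55 reads, against 1 in vector), beside 8.45% of all genes. The fibroblast list, with LUM and THY1 at 0, summed to 0.898 to 1.78 CPM.

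The genes whose folds against vector lay nearest to those of SERPINA1 were sought among 10392 genes with at least 300 reads over the 4 libraries. Genes named only by a clone identifier were left out of this search. Likeness was the Euclidean distance over the 3 log2 folds, which all share the vector library. IL18RAP, an interleukin 18 receptor subunit gene, was nearest at a distance of 0.21, with 18.2 CPM in E2-2, 55.9 CPM in E2A, 58.2 CPM in HEB and 114 CPM in vector. DHRS9, a retinol dehydrogenase gene, followed at 0.31 and the integrin gene ITGAX, which marks myeloid and dendritic cells, at 0.32. SERPINB9 came next at 0.35, before the leukocyte receptor gene VSTM1 at 0.45. Another listed member was thus among the 5 genes most like SERPINA1 in these libraries. The members were listed with earlier results of the same libraries known, so this is a description and not independent evidence.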

How the data were processed

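RNA libraries came from GFP-positive sorted cells, with TRIzol extraction and a TruSeq RNA kit on an Illumina HiSeq, per the labels' protocols. The authors deposited 1 table with whole-number read counts per Ensembl gene and library. FPKM columns stand beside the counts in that deposited table. TopHat2 2.0.9 and HTSeq 0.9.1 are named, with the builds hg38 and hg19, in the submitters' processing notes, without roles. Sources used here give neither the annotation nor the strand setting. All 10 members overlapped the RefSeq gene of their symbol in GRCh38.p14. Promoter sequences are those of RefSeq in that build, where 7 members had a window. Protein sequences were not used here. One gene of the list of other serpins is not reported here and is left out of its counts.

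Counts were scaled with edgeR 4.0.16 (TMM) in R 4.3.3 over the 4 libraries, and folds have 95% Clopper-Pearson intervals of the conditional binomial distribution. With 1 library per group there is no test across samples and no p-value. For a fold, 3 reads replaced a count of 0, and no fold was formed where both counts were 3 or fewer. The interval of a read ratio is a normal approximation on the log scale. Alternatives were DESeq2 1.42.0 size factors, total counts, FPKM, other read minimums and a 3-fold rule. The intervals and calls were tested on simulated counts. Those counts held counting error only, as the intervals assume, so they say nothing about differences between cultures. Members, lists and rules were chosen with earlier results of these data known. The genes named from other lists were all called ones against vector, at most 4 per comparison by the interval bound nearest to 1, and known protease targets of members. The 5 genes most like SERPINA1 and the nearest expressed neighbours of SERPINA1 and SERPINF1 were named too. So was every gene with at least 30 reads over the 4 libraries within 300 kb of SERPINB9. SERPINH1, AZU1, PRSS57, CTSC, CD33, CSF1R, MS4A7, CD3D, CD8A, S100A8 and GP9 were picked after their values were seen. Computation used Python 3.11.15, numpy 2.4.6, scipy 1.17.1, pandas 2.3.3 and matplotlib 3.10.9.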

Additional observations from a re-analysis of the deposited data

How the results depend on the processing

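With 1 library per group, differences between cultures are not measured, and the depth limits SERPINB2, SERPINB8, SERPINB10, SERPINE2 and SERPING1. Under DESeq2 size factors, total counts and FPKM, all 102 recomputed log2 folds of members kept their sign, moved by at most 0.0547, and the counts of called members did not change. FPKM folds of members equalled those from total counts to within 1e-04, so this unit is no separate check. Among members, the log2 fold of SERPINB1 in E2-2 against HEB left its counting interval, at -0.89 with total counts and FPKM. The log2 fold of PRTN3 in E2-2 against vector did so too, at -0.87. Of the other genes named, PLAU lost its call in E2-2 against vector with total counts or FPKM, at a fold of 0.503. With a 3-fold rule, SERPINA1 and SERPINB9 were still called lower in E2-2 against vector, and 0 members were called higher there, 0 lower in E2A against vector, 0 in either direction in E2-2 against E2A and 0 higher in E2-2 against HEB, where SERPINB9 lost its call and 2 members were still called lower. With at least 100 reads SERPINB8 lost its call there, which also left 2. Without a read minimum SERPINB8 joined the members called lower in E2-2 against vector, which were then 4, and in E2-2 against E2A, which were then 3. No paired analysis was possible because each group has 1 library.

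The calls over all genes were 1173 and 493 for E2-2 against vector, 680 and 220 for E2A against vector, 349 and 169 for HEB against vector, higher and lower in that order. Between the E proteins they came to 511 with 227 in E2-2 against E2A, 846 with 218 in E2-2 against HEB, 332 with 97 in E2A against HEB. With at least 100 reads required the counts over all genes that moved by more than 1.5 times were 753 genes higher and 285 lower for E2-2 against vector, 390 genes higher and 88 lower for E2A against vector, 183 genes higher and 55 lower for HEB against vector. The others under this setting were 278 genes higher and 87 lower for E2-2 against E2A, 497 genes higher and 109 lower for E2-2 against HEB, 146 genes higher and 28 lower for E2A against HEB. With no read minimum the counts over all genes that moved by more than 1.5 times were 388 lower for E2A against vector, 574 genes higher and 302 lower for HEB against vector. The others under this setting were 767 genes higher and 367 lower for E2-2 against E2A, 581 genes higher and 222 lower for E2A against HEB. With a 3-fold rule the counts over all genes that moved by more than 1.5 times were 678 genes higher and 132 lower for E2-2 against vector, 373 genes higher and 27 lower for E2A against vector, 176 genes higher and 18 lower for HEB against vector. The others under this setting were 208 genes higher and 65 lower for E2-2 against E2A, 406 genes higher and 45 lower for E2-2 against HEB, 120 genes higher and 17 lower for E2A against HEB. These changes follow from the threshold itself.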
